A study of Homo sapiens with 4 samples.

Results

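MCF10A cells carrying YAP-S94A, a form of the coactivator YAP with a changed TEAD-binding part, were compared with MCF10A cells carrying wild-type YAP (YAP-WT). The comparison rests on 2 of the 4 arrays of the study, 1 for each form. The arrays of the empty vector and of YAP-W1W2, in which the WW domains are changed, are given beside them as levels only. Of 19775 genes represented by 1 probe set each, the 12759 with a mean intensity over the 4 arrays of at least 113.6 are called measured. The genes described are those of the measured set that differed between the YAP-S94A and YAP-WT arrays, in lists ordered by what the genes do. With 1 array per form there was no replicate check, so differences are given as sizes and no test was made.

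MCF10A is a human line of mammary epithelial cells that does not form tumours. Each culture had taken up a pQCXIH retrovirus, either empty or carrying a YAP form, so the vector cells share the infection but not the insert. Every culture grew in the same DMEM/F12 medium with 5% horse serum, 20 ng/ml EGF, 0.5 µg/ml hydrocortisone, 10 µg/ml insulin and 100 ng/ml cholera toxin. The endogenous YAP of MCF10A cells is not described as removed in the labels, and the labels do not say whether a culture came from 1 clone. Total RNA was extracted with Trizol and hybridized as biotin-labelled cRNA.

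YAP carries no DNA-binding domain of its own and reaches genes mainly through the TEAD transcription factors. The Hippo kinases MST and LATS phosphorylate YAP and keep it out of the nucleus when epithelial cells are crowded. In mammary epithelial cells active YAP is known for growth in low EGF, loss of epithelial shape and expression of matricellular proteins such as CCN1 and CCN2. The serine changed in YAP-S94A lies in the surface that contacts TEAD, while the WW domains bind partners with proline-rich motifs.

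The promoters of 4 genes picked by hand are shown first: CCN2 and ANKRD1, classical TEAD targets that were lower with YAP-S94A, and CXCL8 and CLDN4, which were higher. They are examples and do not stand for the sets of lower and higher genes, whose motif shares are given below. Each line is the 250 bases before the RefSeq start of the gene, 5′ to 3′ on the gene's strand, from assembly GRCh38.p14. The windows are chr6:131951373-131951622 on the minus strand for CCN2, chr10:90921088-90921337 on the minus strand for ANKRD1, chr4:73740319-73740568 on the plus strand for CXCL8 and chr7:73830746-73830995 on the plus strand for CLDN4. Capitals mark GGAATG, the core bound by TEAD factors, and TGANTCA, the element bound by AP-1 dimers, both searched on either strand.
CCN2: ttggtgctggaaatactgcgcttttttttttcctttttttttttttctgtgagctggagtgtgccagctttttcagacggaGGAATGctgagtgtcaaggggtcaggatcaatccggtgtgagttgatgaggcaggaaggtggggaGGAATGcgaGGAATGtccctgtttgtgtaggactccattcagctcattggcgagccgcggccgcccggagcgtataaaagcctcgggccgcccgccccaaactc
ANKRD1: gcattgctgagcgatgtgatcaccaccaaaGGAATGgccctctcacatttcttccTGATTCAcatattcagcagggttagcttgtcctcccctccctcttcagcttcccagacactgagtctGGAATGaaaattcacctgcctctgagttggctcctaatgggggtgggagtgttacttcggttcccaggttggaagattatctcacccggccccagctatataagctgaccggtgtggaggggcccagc
CXCL8: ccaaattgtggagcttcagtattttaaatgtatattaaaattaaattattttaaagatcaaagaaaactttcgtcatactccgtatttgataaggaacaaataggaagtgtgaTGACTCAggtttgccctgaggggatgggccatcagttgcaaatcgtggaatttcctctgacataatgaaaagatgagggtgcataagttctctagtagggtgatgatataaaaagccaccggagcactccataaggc
CLDN4: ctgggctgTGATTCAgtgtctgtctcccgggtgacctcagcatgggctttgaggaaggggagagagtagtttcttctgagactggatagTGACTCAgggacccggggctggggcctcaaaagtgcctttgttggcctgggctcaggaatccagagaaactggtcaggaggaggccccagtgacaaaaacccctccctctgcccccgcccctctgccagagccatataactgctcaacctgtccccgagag

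CCN2 held 3 copies of GGAATG and ANKRD1 held 2 with 1 copy of TGANTCA, while CXCL8 held 1 and CLDN4 held 2 copies of TGANTCA and no GGAATG. The TEAD core was found in 11.89% of all 35116 RefSeq promoter windows of this length and in 10.06% of those of measured genes. It was found in 30 of 206 windows (14.56%) of genes at least 4-fold lower in YAP-S94A and in 4 of 90 (4.44%) of genes at least 4-fold higher. Windows, not genes, were counted, and a gene can have several. The 206 windows belonged to 113 of the 147 lower genes and the 90 to 68 of the 86 higher genes. The other genes had no window, and shares per gene were not computed. Among the measured genes of a YAP target signature, 7 of 17 windows (41.18%), from 15 of 21 genes, held the TEAD core. TGANTCA was found in 6.57% of all windows, in 4.69% of those of measured genes, in 15 of 90 (16.67%) of genes at least 4-fold higher and in 14 of 206 (6.8%) of genes at least 4-fold lower. At the 2-fold limit the shares lay closer together, at 10.39% of windows of lower genes and 9.05% of higher genes for GGAATG, and at 5.29% and 7.64% for TGANTCA. A match describes these letters in this window and does not show that a factor binds there.

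With YAP-S94A, 646 of 12759 measured genes (5.06%) exceeded their YAP-WT level by 2-fold or more and 800 (6.27%) lay as far below it, 11.3% in all. Past these limits the lists of YAP targets, collagens, matrix glycoproteins and quiescence genes had more members lower than higher. The lists of epithelial junctions, keratinocyte differentiation, chemokines and ERK feedback had more members higher than lower, though in each of these most measured members lay within 2-fold. At 4-fold the counts were 86 higher (0.674%) and 147 lower (1.15%), and at 8-fold 15 and 44. The median log2 difference over all measured genes was 0.01, with an interquartile range of −0.34 to 0.35. Counts of list members below are to be read against 5.06% higher, 6.27% lower and this median. The higher genes included 139 at or below the floor of 72.9 in YAP-WT, and the lower genes 161 at or below it in YAP-S94A. Where 1 of the arrays was at the floor, the fold is a bound, given as at least a value.

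**Figure D1:**
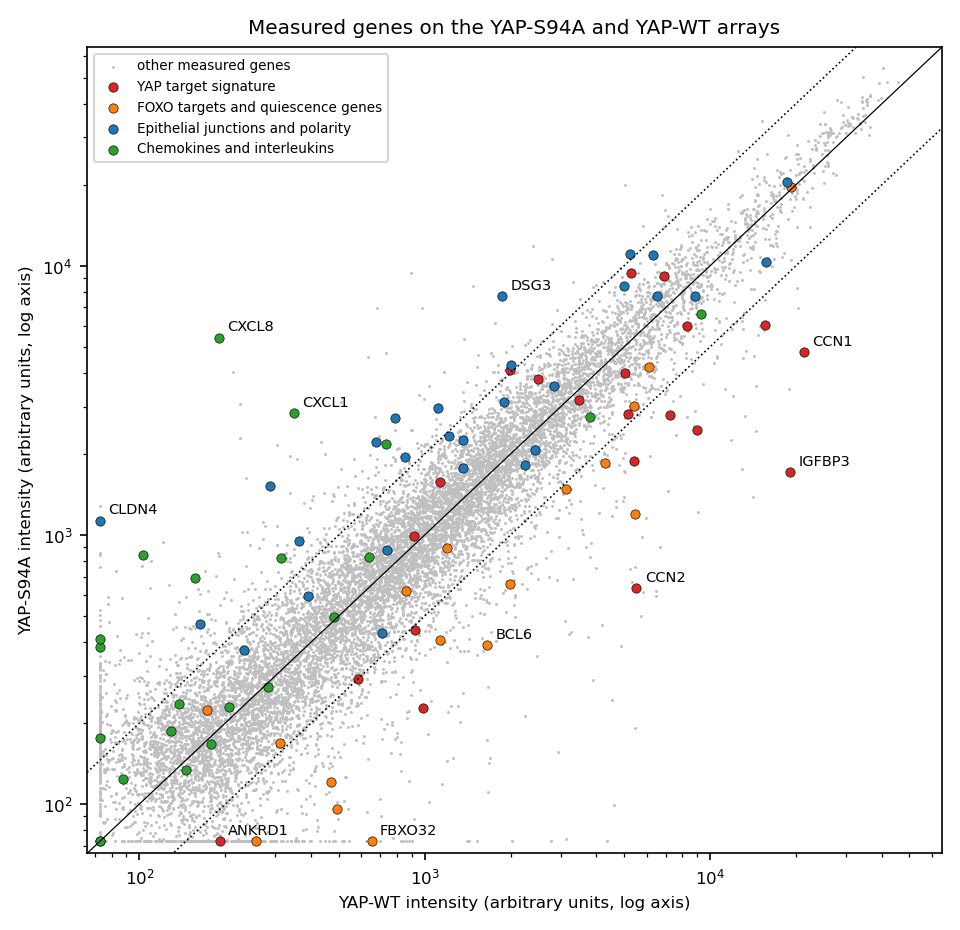
Intensity of each of the 12759 measured genes on the YAP-WT array (horizontal, log axis) and the YAP-S94A array (vertical, log axis), with values below the floor of 72.9 drawn at it; the solid line marks equal intensity and the dotted lines 2-fold. YAP signature genes such as CCN2 and IGFBP3 and quiescence genes such as FBXO32 and BCL6 lie below the lower dotted line, and CXCL8, CXCL1, CLDN4 and DSG3 lie above the upper one.

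The limit of 2-fold has no gap around it. On the higher side THSD4 was just inside it at 2.0003-fold and TSKU just outside at 1.9998-fold. On the lower side ID3 was just inside at 2.0005-fold and ICOSLG just outside at 1.9993-fold. Dim genes passed more often. Among measured genes with a mean intensity up to 268.6, 9.44% were higher and 9.09% lower past 2-fold, against 2.35% and 4.36% of those above 1809. Of the higher genes, 220 had several measured probe sets, and for 176 of these (80.0%) all pointed the same way. For 77 of the 220 all probe sets were past 2-fold. For the lower genes the numbers were 363, 297 (81.82%) and 149. The probe set that placed a gene past 2-fold is among those counted.

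Trimmed mean intensities (2% off each end) were 503.3 for YAP-WT and 500.8 for YAP-S94A. The actin and GAPDH control probe sets were higher in YAP-S94A than in YAP-WT by 0.25 and 0.23 on the log2 scale. By the probe sets with r2 in their names, the spikes bioB, bioC and bioD differed by −0.22, −0.32 and −0.20, and cre by 0.09. The other probe sets of these spikes ran from −0.83 to −0.01, with cre at −0.12 and −0.32. Of all genes past 2-fold, 44.67% were higher. When each array was instead divided by its actin and GAPDH controls, the median gene shifted by −0.24 on the log2 scale, the counts became 358 higher and 1302 lower, and 21.57% were higher. The ratios of 3′ to 5′ probe sets, a sign of RNA quality, were 1.072 in YAP-WT and 1.013 in YAP-S94A for actin, and 1.015 and 1.035 for GAPDH.

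The 9 measured basal mammary epithelial markers were bright in every culture, with summed intensities of 141458.7 to 156535.5, and 0 of them differed 2-fold. Of 10 endothelial markers 1 was measured and 7 were at or below the floor on all arrays, and of 13 immune markers 4 were measured. Of 13 fibroblast markers 7 were measured, and the summed intensity of all 13 was 11863.0 in YAP-WT and 5105.4 in YAP-S94A. DCN (3884 and 288) and POSTN (3736 and 419) carried that difference, while the list median was 0.03, with 4 members above 0 and 3 below. The 13 luminal markers, 9 of them measured, summed to 46813.0 and 35713.4. GATA3 (7108 and 1458) and MUC1 (11905 and 5833) were lower, but the median of the 9 measured was 0.09, with 5 above 0 and 4 below. Scaled on actin and GAPDH these medians were −0.21 and −0.15. Where these sums move with the matrix and epithelial genes below, their part in those results was not tested. In RNA of whole cultures, fewer cells of a type and less RNA per cell cannot be told apart.

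YAP1 itself had intensities of 4086 for vector, 3462 for YAP-WT, 4208 for YAP-S94A and 4657 for YAP-W1W2. The difference between YAP-S94A and YAP-WT was 0.28 on the log2 scale, and its 3 probe sets ranged from 0.13 to 0.83. Whether these probe sets detect the inserted YAP was not tested, so they do not check the labels. TEAD1, a DNA-binding partner of YAP, read 3418 for vector, 10308 for YAP-WT, 4337 for YAP-S94A and 11483 for YAP-W1W2. It was 2.38-fold lower in YAP-S94A than in YAP-WT, and was high on the YAP-WT and YAP-W1W2 arrays. The weakest of its 3 probe sets gave −0.21, and their mean gave −0.69, under 2-fold. By their brightest probe sets the other TEAD genes lay within 0.22 of YAP-WT on the log2 scale, at 0.22 for TEAD2, 0.03 for TEAD3 and 0.16 for TEAD4. The 3 TEAD2 probe sets ran from −0.61 to 0.22. The YAP paralog WWTR1, which encodes TAZ, stood at −0.12, and the TEAD-binding cofactors VGLL3 and VGLL4 at −0.62 and −0.32. The 3 WWTR1 probe sets disagreed, from −0.12 to 1.29, and the VGLL4 probe sets pointed both ways. By the brightest probe set of each gene, TEAD1 was thus 1 of 10 measured members of the TEAD and YAP complex past 2-fold.

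Among 26 measured Hippo regulators, 3 lay past 2-fold below YAP-WT and 0 above, around a median of −0.29. AMOTL2, an angiomotin that tethers YAP at junctions and is itself a YAP target, read 2764 for vector, 7223 for YAP-WT, 2783 for YAP-S94A and 4647 for YAP-W1W2, so that YAP-S94A was 2.60-fold below YAP-WT and at the vector level. RASSF5, an adaptor of the MST kinases, was 2.58-fold lower and the protocadherin FAT4 2.24-fold lower. LATS2, the kinase that phosphorylates YAP and is part of its negative feedback, differed by −0.87 with its 3 probe sets between −2.05 and −0.87. The core kinases were closer to equal, at −0.27 for LATS1, −0.09 for STK4, which encodes MST1, and −0.57 for STK3, which encodes MST2 and whose probe sets pointed both ways. The upstream tumour suppressor NF2 stood at −0.49, again with probe sets in both directions, and the scaffold SAV1 at −0.31. TAOK3, a kinase upstream of MST, was the highest of the measured regulators at 0.97. AMOT, WWC2 and DCHS1 were too dim to be counted as measured.

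YAP target genes lay mostly below YAP-WT in YAP-S94A, with exceptions. In a published signature of 22 YAP targets, 21 were measured, 10 were at least 2-fold lower and 1 was higher past the same limit, and the median was −0.99. The remaining member, NUAK2, had no probe set named for it alone. Under the alternative settings the median lay between −1.23 and −0.87. Such signatures were drawn partly from cells with added YAP, so they are not independent evidence of direction. Among 20 measured members of a second list of YAP targets 8 lay past 2-fold below and 1 above, around a median of −0.49 that ran from −1.21 to −0.28 under the alternatives.

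CCN2, the connective tissue growth factor, had intensities of 323 for vector, 5523 for YAP-WT, 636 for YAP-S94A and 8075 for YAP-W1W2. The signal was thus high on the YAP-WT and YAP-W1W2 arrays and lower on the other 2, with YAP-S94A above vector. CCN1, a related matricellular protein, read 5669, 21350.3, 4769.7 and 17804 in the same sequence of arrays, so that YAP-WT and YAP-W1W2 were again high and YAP-S94A was below vector. ANKRD1, a nuclear ankyrin-repeat protein, read 191 in YAP-WT and 273 in YAP-W1W2 and lay below the floor in vector and YAP-S94A, which makes it at least 2.62-fold lower in YAP-S94A. IGFBP3, which carries insulin-like growth factors in the medium, read 2035 for vector, 19124 for YAP-WT, 1712 for YAP-S94A and 36099 for YAP-W1W2.

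For AXL, a receptor tyrosine kinase, the YAP-W1W2 level did not follow that of YAP-WT: AXL read 1411 for vector, 5432 for YAP-WT, 1888 for YAP-S94A and 1023 for YAP-W1W2. CCDC80, a secreted matrix protein, also read higher in YAP-WT (9001) than in YAP-S94A (2464) and YAP-W1W2 (3081), and was 3.65-fold lower in YAP-S94A. CRIM1, a transmembrane binder of BMPs, was 2.58-fold lower, from 15588 to 6041. The weakest of its 3 probe sets stood at −0.79. ARHGEF17, a guanine nucleotide exchange factor, was 2.08-fold lower. TGFB2 was 4.34-fold lower by the brightest probe set, but 1 of the 4 TGFB2 probe sets stood at 1.42.

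The signature member that went the other way was NT5E, the ecto-nucleotidase CD73, which read 389 for vector, 1989.7 for YAP-WT, 4114 for YAP-S94A and 7258 for YAP-W1W2. NT5E was 2.07-fold higher in YAP-S94A than in YAP-WT, and was above vector with every YAP form. It was under 2-fold, at 0.81, when scaled on actin and GAPDH, and at 0.95 as the mean over probe sets. Members below the 2-fold limit also lay on both sides of 0. The membrane repair protein MYOF differed by 0.83, GADD45A by 0.61, FJX1 by 0.48 and tissue factor, F3, by 0.41, while DOCK5, ASAP1 and FOXF2 lay at −0.14, −0.33 and 0.11. The tissue factor gene F3 read 2248 for vector, 6892 for YAP-WT, 9189 for YAP-S94A and 13058 for YAP-W1W2, with all YAP forms above vector.

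In the second list, the secreted glycoprotein FSTL1 read 2662 for vector, 11828 for YAP-WT, 2245 for YAP-S94A and 9895 for YAP-W1W2, a 5.27-fold lower level in YAP-S94A than in YAP-WT by both of its probe sets. The caveolar protein CAVIN2 was 4.09-fold lower, the neurotrophin BDNF 3.51-fold lower and DLC1, a GTPase-activating protein, 3.40-fold lower. Each of these was also lower in vector than in YAP-WT, at 1467 against 3834 for CAVIN2, 335 against 2071 for BDNF and 306 against 1299.9 for DLC1. MARCKS, an actin-linked substrate of protein kinase C, was 2.61-fold lower, with the weakest of its 5 probe sets at −0.63. The transcription factor SOX9 was instead 5.37-fold higher, reading 991 for vector, 358 for YAP-WT, 1923 for YAP-S94A and 386 for YAP-W1W2. Targets of the cell cycle in this list were near equal: BIRC5 stood at −0.18 and CDC20 at −0.05. Endothelin, EDN1, stood at 0.02 and caveolin, CAV1, at −0.28.

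**Figure D2:**
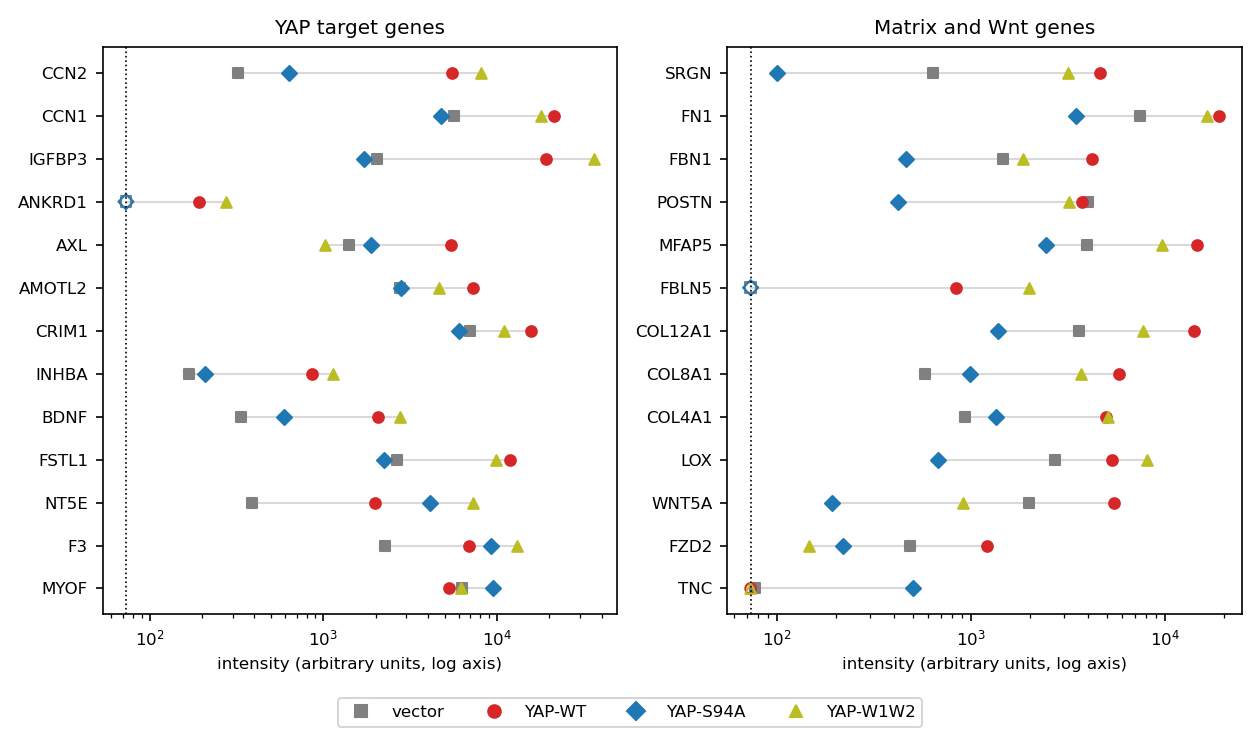
Intensity (log axis) on the arrays of vector and the YAP forms WT, S94A and W1W2, 1 marker per array and gene, for YAP target genes (left) and matrix and Wnt genes (right); open markers lie at or below the dotted floor of 72.9. For IGFBP3, FSTL1 and FBN1 the YAP-S94A marker lies below the vector marker and the YAP-WT and YAP-W1W2 markers lie above, while for NT5E, F3 and TNC the YAP-S94A marker lies above the YAP-WT marker.

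Many extracellular matrix genes were lower in YAP-S94A. Of 17 measured collagens 8 lay past 2-fold below YAP-WT and 0 above, around a median of −0.91. COL12A1, a fibril-associated collagen, read 3610.5 for vector, 14153 for YAP-WT, 1379 for YAP-S94A and 7682 for YAP-W1W2. COL8A1, a short-chain collagen, was 5.87-fold lower, at 578, 5794, 987 and 3677 in the same order. Both were high on the YAP-WT and YAP-W1W2 arrays and low on the others. The basement membrane chains COL4A1, COL4A2 and COL4A5 were 3.69-fold, 2.36-fold and 2.21-fold lower, and COL4A3 was at least 4.66-fold lower. COL4A4 was 11.4-fold lower by the brightest probe set, but its other probe set stood at 0.61, and for the fibrillar COL1A1 (2.70-fold lower) the other stood at 0.31 and the mean at −0.56. COL1A2, the partner chain of COL1A1, stood at 0.64, at a low intensity of 122 in YAP-WT.

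The 29 measured matrix glycoproteins and proteoglycans had a median of −0.84, and 12 were lower and 2 higher by 2-fold or more. Serglycin, SRGN, the core protein of intracellular and secreted proteoglycans, read 632 for vector, 4609.9 for YAP-WT, 99.5 for YAP-S94A and 3144 for YAP-W1W2, so that YAP-S94A was 46.3-fold below YAP-WT and also below vector. FBN1, the main fibrillin of elastic microfibrils, read 1454, 4198, 463 and 1857 in the same order of arrays, and MFAP5, a microfibril protein, 3954, 14532, 2424 and 9651. FN1, fibronectin, was 5.41-fold lower by the brightest probe set, with 5 probe sets between −2.44 and −2.05. The elastic fibre protein FBLN5 read 839 in YAP-WT and was below the floor in YAP-S94A and vector, at least 11.5-fold lower.

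Other matrix genes were lower by smaller folds, among them SPARC (3.63-fold), a collagen-binding matricellular protein, FBN2 (3.10-fold), THBS1 (2.77-fold), the anti-angiogenic thrombospondin, and EFEMP1 (2.43-fold). The weakest FBN2 probe set stood at −0.28. Decorin, DCN, and periostin, POSTN, were 13.5-fold and 8.92-fold lower, but their order across arrays differed from that of CCN2. DCN read 9344 for vector, 3884 for YAP-WT, 288 for YAP-S94A and 248 for YAP-W1W2, so both mutants were low. POSTN read 4014 for vector, 3736 for YAP-WT, 419 for YAP-S94A and 3176 for YAP-W1W2, so YAP-S94A alone was low. DCN and POSTN also stand in the fibroblast marker list given above. The matrix genes that were higher in YAP-S94A were tenascin C, TNC, at least 6.91-fold higher with 504 in YAP-S94A and 35.3 in YAP-WT, and matrilin 2, MATN2, 2.34-fold higher. LAMB3, a chain of the epithelial basement membrane protein laminin 332, differed by 0.77.

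Enzymes that build or cut matrix lay on both sides. The 29 measured ones had a median of −0.14, with 8 lower and 2 higher past 2-fold. The lysyl oxidase LOX, which cross-links collagen and elastin, read 2695 for vector, 5315 for YAP-WT, 671 for YAP-S94A and 8023 for YAP-W1W2. Its relatives LOXL2 and LOXL4 were 2.31-fold and 2.14-fold lower, LOXL2 standing at −0.84 as the mean over its probe sets. The tissue transglutaminase TGM2 was 2.77-fold lower, the protease ADAMTS1 3.06-fold lower, matrilysin, MMP7, 3.95-fold lower, and the inhibitor TIMP2 3.24-fold lower. The weakest probe sets of ADAMTS1 and TIMP2 stood at −0.51 and −0.56, under 2-fold. The 2 higher genes form a pair: PLAU, the urokinase plasminogen activator, was 2.61-fold higher and its receptor PLAUR 6.12-fold higher, with 509 in YAP-WT and 3116 in YAP-S94A and a weakest PLAUR probe set at 0.96. SERPINE2, an inhibitor of such proteases, was 2.48-fold lower.

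Integrins and focal adhesion genes split, 4 of 28 measured being lower past 2-fold and 4 higher, around a median of −0.16. The leukocyte-type beta subunit ITGB2 read 221 for vector, 5244 for YAP-WT, 747 for YAP-S94A and 1169.7 for YAP-W1W2, a 7.02-fold lower level in YAP-S94A than in YAP-WT. The adaptors PARVA and TNS3 were 3.92-fold and 3.18-fold lower, and TNS1 at least 11.8-fold lower, its weakest probe set standing at −0.79. The 7 PARVA probe sets ran from −1.97 to −0.06. The collagen receptor subunit ITGA2 was 2.65-fold higher, at 370.1 in YAP-WT and 979.6 in YAP-S94A, and ITGA4, ITGAM and ITGB3 were 2.23-fold, 2.24-fold and 2.02-fold higher from dim levels of 111, 127 and 112 in YAP-WT. Of 24 measured genes of the actin cytoskeleton and SRF response, 3 were lower and 1 higher. The myosin light chain kinase MYLK was 5.62-fold lower, the actin-binding CALD1 2.08-fold lower, and ACTG2, a smooth muscle actin, 6.03-fold higher. SRF was at least 7.04-fold lower by 1 probe set and stood at −0.10 by another.

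Mesenchymal genes had a median of −0.24, and 7 of 17 measured lay below YAP-WT past 2-fold and 2 above. FN1 and SPARC, described above, are members. The EMT factors TWIST1 and ZEB1 were 2.34-fold and 2.18-fold lower, and ZEB2 was at least 3.33-fold lower with its other probe set at −0.35. N-cadherin, CDH2, read 575 for vector, 1593 for YAP-WT, 726 for YAP-S94A and 2029 for YAP-W1W2, so that it was high with YAP-WT and YAP-W1W2. TWIST2 stood at 0.51 with probe sets in both directions. THY1 was at least 3.37-fold higher by the brightest probe set and stood at −0.31 by another, and the neuropilin NRP1 was 2.90-fold higher.

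The Wnt list held 24 measured genes, of which 8 were at least 2-fold lower, 3 higher and the median −0.36. WNT5A, a ligand of beta-catenin-independent signalling, read 1976 for vector, 5462 for YAP-WT, 191 for YAP-S94A and 912 for YAP-W1W2. Its receptors were lower too: FZD2 was 5.53-fold lower and ROR1 2.93-fold lower, though 1 of the 3 ROR1 probe sets stood at 0.12. The other FZD2 probe set stood at −0.80. FZD1 was 2.90-fold lower, FZD6 2.13-fold and FZD4 at least 2.66-fold. For FZD1 the other probe set stood at −0.65. The secreted antagonists SFRP1 and DKK1 were 2.85-fold and 2.66-fold lower. In the other direction, the ligands WNT7B and WNT16 were 3.03-fold and 2.08-fold higher, and NKD1, a feedback inhibitor, at least 3.41-fold higher.

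The TGF-beta, activin and BMP list, with 26 measured genes and a median of −0.24, had 4 lower and 3 higher past 2-fold. INHBA, the activin A subunit, read 167 for vector, 865 for YAP-WT, 209 for YAP-S94A and 1136 for YAP-W1W2. FST, the follistatin that binds and blocks activin, ran opposite to it, with 121 in YAP-WT and 938 in YAP-S94A, a 7.76-fold higher level. The co-receptor TGFBR3 was 3.73-fold lower. BMP6 was 2.07-fold higher and BMP7 at least 2.73-fold higher. SMAD6, an inhibitory SMAD, was at least 5.16-fold lower by the brightest probe set and stood at 0.00 by another. A value of 0.00 also arises where both arrays lie at or below the floor.

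Genes known as FOXO targets or as marks of quiescence were the list with the lowest median, −1.14, which lay between −1.61 and −1.11 under the alternative settings. Of 18 measured members 10 were at least 2-fold lower in YAP-S94A, 0 were higher, and 15 lay below 0. FBXO32, the ubiquitin ligase atrogin-1, read 2422 for vector, 652 for YAP-WT, 63.4 for YAP-S94A and 193 for YAP-W1W2, at least 8.94-fold lower in YAP-S94A than in YAP-WT. TSC22D3, the glucocorticoid-induced leucine zipper, read 9764, 5445, 1199 and 954 in the same order. BCL6, a transcriptional repressor, read 2383, 1653, 390.4 and 802. For these genes vector was highest and both mutants were below YAP-WT, which differs from the order seen for CCN2.

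Other members were lower in the same direction. SESN3, an inhibitor of mTORC1, was 3.91-fold lower and the zinc finger repressor ZBTB16 3.04-fold lower. SELENOP, a selenium carrier, was 2.77-fold lower, IRS2, an adaptor of the insulin receptor, 2.30-fold and FOXO1 itself 2.11-fold. PDK4, which slows pyruvate oxidation, was at least 3.52-fold lower, with 257 in YAP-WT. KLHL24 was 5.16-fold lower by the brightest probe set, with 4 probe sets between −2.37 and −0.52. Outside this list, the cyclin-dependent kinase inhibitor CDKN1C, which encodes p57, read 4578 for vector, 3793 for YAP-WT, 825 for YAP-S94A and 1933 for YAP-W1W2, and its 4 probe sets gave −2.21 to −2.06. TP53INP1, a p53 and FOXO-linked stress gene, was 3.22-fold lower. CITED2, a cofactor of the acetyltransferases CBP and p300, read 4671 for vector, 6488 for YAP-WT, 593 for YAP-S94A and 6388 for YAP-W1W2, so that YAP-S94A alone was low.

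Many epithelial junction and polarity genes were higher in YAP-S94A. Of 28 measured members 11 were at least 2-fold higher and 0 lower, with a median of 0.74 that lay between 0.50 and 0.82 under the alternative settings. CLDN4, a tight junction claudin, read 261 for vector, 54.5 for YAP-WT, 1130.3 for YAP-S94A and 82.4 for YAP-W1W2, and was the brightest in YAP-S94A. DSG3, the desmoglein of basal keratinocyte desmosomes, read 11952, 1863, 7712 and 1231 in the same order and was 4.14-fold higher in YAP-S94A than in YAP-WT. CLDN7 was 3.47-fold higher and read 2399, 786, 2729 and 1600.3. For both, vector and YAP-S94A were the high arrays.

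E-cadherin, CDH1, the core of adherens junctions, read 5829 for vector, 5239 for YAP-WT, 11039 for YAP-S94A and 8295 for YAP-W1W2, a 2.11-fold difference between YAP-S94A and YAP-WT. ESRP1, which directs epithelial splicing, was 5.31-fold higher, reading 288 in YAP-WT and 1526 in YAP-S94A, and 1446 in YAP-W1W2. The gap junction genes GJB5 and GJB2 were 3.28-fold and 2.85-fold higher, occludin, OCLN, 2.65-fold, and RAB25, a small GTPase of apical recycling, 2.62-fold. The weakest of the 4 OCLN probe sets stood at 0.78. The matriptase gene ST14 and CLDN1 were 2.28-fold and 2.13-fold higher. EPCAM and P-cadherin, CDH3, lay below the limit at 0.94 and 0.80. When scaled on actin and GAPDH, CDH1, CLDN1 and ST14 dropped below 2-fold, to 0.84, 0.85 and 0.95.

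Transcription factors of epithelial fate split, with 5 of 22 measured at least 2-fold higher and 3 lower. ELF3, an ETS factor of differentiated epithelia, was 3.79-fold higher, FOXA1 2.49-fold, SOX15 2.47-fold and GRHL3 2.04-fold, alongside SOX9 above. GATA3, the luminal factor, read 2679 for vector, 7108 for YAP-WT, 1458 for YAP-S94A and 4723 for YAP-W1W2, so that YAP-S94A was 4.87-fold below YAP-WT and the lowest of the arrays. The inhibitors of bHLH factors ID2 and ID3 were 2.41-fold and 2.00-fold lower, and a second ID2 probe set stood at −0.88.

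Many keratinocyte differentiation genes were also higher, with 13 of 29 measured at least 2-fold higher, 1 lower and a median of 0.78 that ran from 0.46 to 1.18 under the alternatives. SPRR2B, a small proline-rich precursor of the cornified envelope, read 1000.2 for vector, 226 for YAP-WT, 3057 for YAP-S94A and 731 for YAP-W1W2. Cystatin A, CSTA, a protease inhibitor of the envelope, was 3.96-fold higher and read 22999, 5042, 19972 and 2894. The small proline-rich genes SPRR1A and SPRR1B were 3.47-fold and 3.44-fold higher. The kallikreins KLK7, KLK10 and KLK5, proteases of shedding keratinocytes, were 4.12-fold, 7.10-fold and 3.39-fold higher, and ABCA12, a lipid transporter, 3.22-fold. A second KLK10 probe set stood at 0.99. SPRR3 was at least 17.5-fold higher by the brightest probe set and 0.49 by another. Periplakin, PPL, was the member that was lower, at 3.02-fold.

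Among keratins 2 of 14 measured were at least 2-fold higher and 1 lower, but 10 lay below 0 and the median was −0.16. KRT15, a keratin of basal progenitor cells, read 7699 for vector, 678 for YAP-WT, 6996 for YAP-S94A and 1522 for YAP-W1W2. KRT13, of stratified non-cornified epithelia, was 4.11-fold higher, at 138 in YAP-WT and 565 in YAP-S94A. KRT4, the usual partner of KRT13, ran the other way, with 1138 for vector, 4548 for YAP-WT, 245 for YAP-S94A and 1426 for YAP-W1W2, an 18.6-fold lower level in YAP-S94A. The 13 measured S100 genes had a median of 0.70, and past 2-fold 4 were higher and 2 lower. S100P read 4074 for vector, 895 for YAP-WT, 9381 for YAP-S94A and 1382 for YAP-W1W2. S100A14 and S100A3 were 4.93-fold and 3.35-fold higher and S100A7 at least 4.60-fold, while S100A4 and the calprotectin subunit S100A8 were 2.63-fold and 2.38-fold lower.

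**Figure D3:**
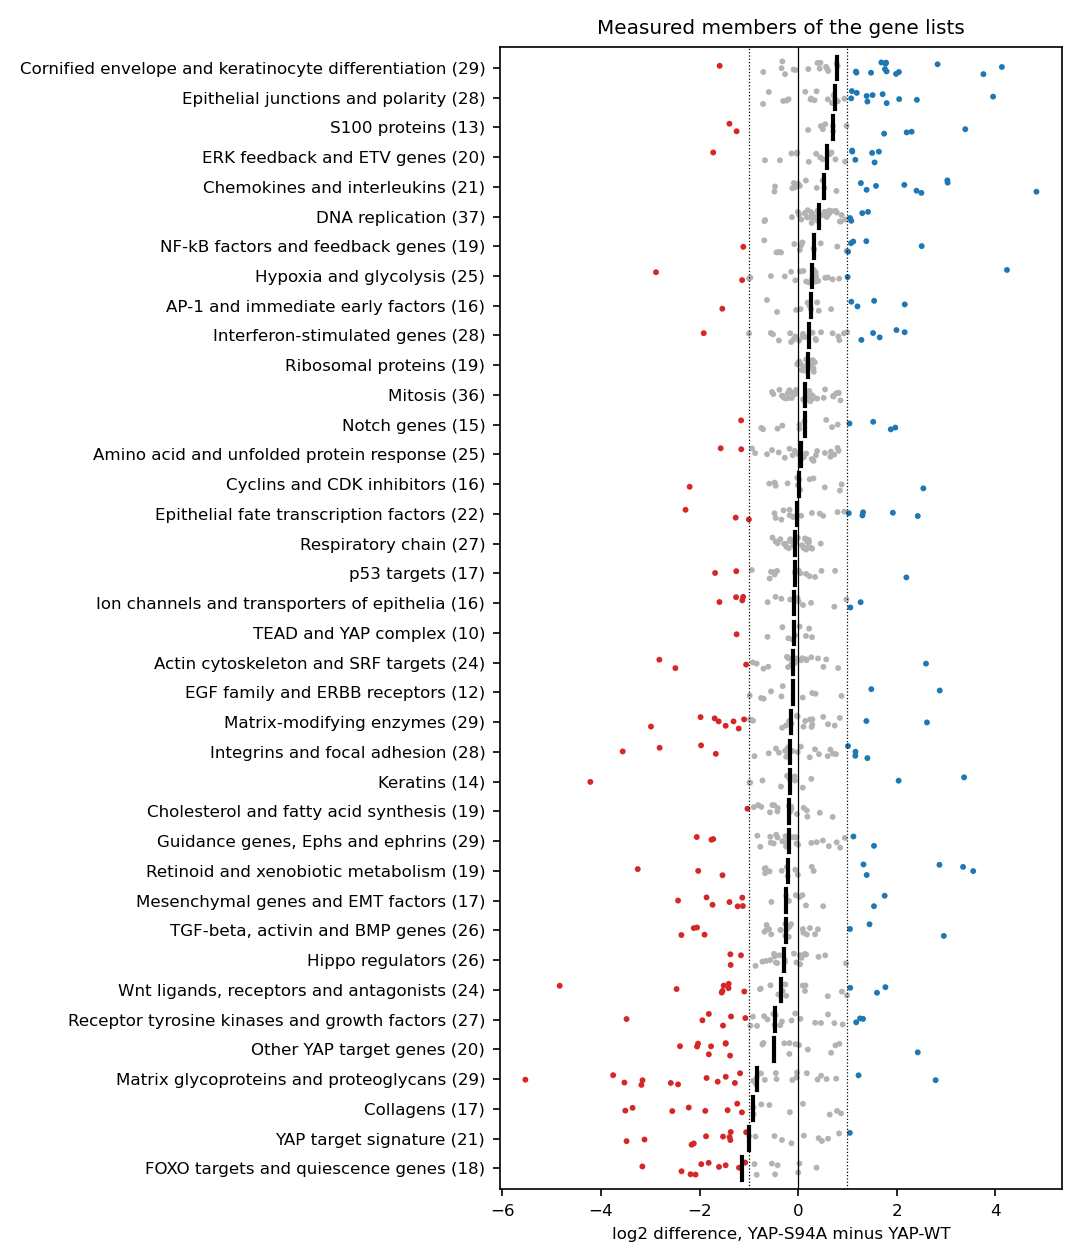
Log2 difference, YAP-S94A minus YAP-WT, of each measured member (point) of each gene list with at least 9 measured members, the number measured being in brackets. The lists of cell type markers are left out. The black bar is the list median, blue and red points lie beyond 2-fold, and the dotted lines mark 2-fold. The quiescence, YAP target and collagen lists have the lowest medians (−1.14, −0.99 and −0.91) and the junction and keratinocyte lists have medians of 0.74 and 0.78, with members of most lists spread on both sides of 0.

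Several chemokines and interleukins were higher in YAP-S94A, with 9 of 21 measured at least 2-fold higher, 0 lower and a median of 0.53. The median ran from 0.16 to 1.08 under the alternatives. CXCL8, the main neutrophil chemokine, read 645 for vector, 189.8 for YAP-WT, 5414 for YAP-S94A and 275 for YAP-W1W2, and its 2 probe sets gave 4.51 and 4.83. YAP-S94A was the highest array for it by a wide margin. CXCL1, of the same family, read 2137 for vector, 349 for YAP-WT, 2842 for YAP-S94A and 397 for YAP-W1W2, so that vector and YAP-S94A were both high. CXCL2 read 567, 103, 842 and 164 and followed CXCL1. The cytokines LIF (4.45-fold) and IL1A (2.99-fold) were higher, as were the interleukin-1 receptor antagonist IL1RN (2.62-fold) and, with YAP-WT at the floor, CCL28, CSF3 and TNF, at least 5.65-fold, 5.28-fold and 2.41-fold.

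Factors and feedback genes of NF-kB had a median of 0.31, or 0.07 when scaled on actin and GAPDH, with 5 of 19 measured higher past 2-fold and 1 lower. IER3, an early response gene, read 1065 for vector, 1481 for YAP-WT, 8415 for YAP-S94A and 4633 for YAP-W1W2, a 5.68-fold difference. TNFAIP3, which encodes the inhibitor A20, was 2.61-fold higher and the subunit RELB 2.10-fold higher. A second TNFAIP3 probe set stood at 0.73. The superoxide dismutase SOD2 went the other way, 2.16-fold lower, and its level in YAP-S94A (380.2) was below those in vector (2929.9) and YAP-WT (823).

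Some ligands of the EGF receptor and some genes that answer ERK activity were higher. HBEGF, a heparin-binding ligand, read 105 for vector, 109.5 for YAP-WT, 802 for YAP-S94A and 628 for YAP-W1W2, 7.32-fold higher in YAP-S94A than in YAP-WT. Both mutants were high for it. TGFA, a ligand of the same receptor, was 2.80-fold higher and read 680.5, 683, 1911 and 1446 in the same order. A second TGFA probe set stood at 0.73. The receptors themselves lay below, with EGFR at −0.98, ERBB2 at −0.70 and ERBB3 at −0.75, the EGFR and ERBB2 probe sets pointing both ways. In this list 2 of 12 measured genes were higher and 0 lower past 2-fold, around a median of −0.11.

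In the list of ERK feedback and ETV genes 6 of 20 measured were at least 2-fold higher and 1 lower, with a median of 0.58, or 0.34 when scaled on actin and GAPDH. DUSP6, the phosphatase that acts on ERK, read 120.5 for vector, 474 for YAP-WT, 1342 for YAP-S94A and 688 for YAP-W1W2. All YAP forms were above vector for it, and YAP-S94A was the highest. DUSP7 was 3.11-fold higher, the Sprouty inhibitor SPRY4 2.23-fold and IER2 2.14-fold, and DUSP2 at least 2.93-fold. PHLDA1 was 2.14-fold higher with 6 probe sets from −0.80 to 1.65. The lower gene was the ephrin receptor EPHA4, at least 3.30-fold lower, with a second probe set at −0.99. Of 16 measured AP-1 and immediate early factors 4 were higher and 1 lower, and their median of 0.25 became 0.00 when scaled on actin and GAPDH. FOSL1, the Fra-1 subunit of AP-1, read 301 for vector, 448 for YAP-WT, 2006 for YAP-S94A and 775 for YAP-W1W2. FOSL2, which encodes Fra-2, ran opposite to it, 2.91-fold lower with all 5 probe sets below 0. JUNB was 2.11-fold higher and NR4A1 at least 2.30-fold.

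**Figure D4:**
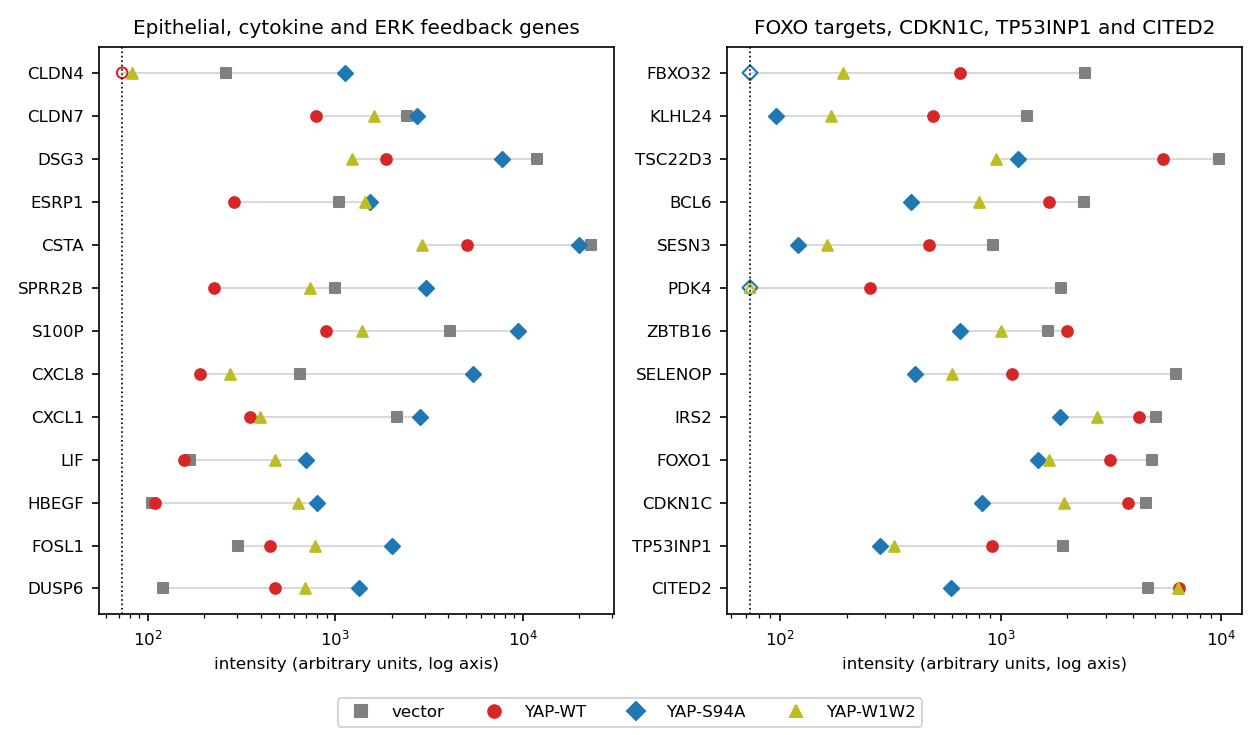
Intensity (log axis) on the arrays of vector and the YAP forms WT, S94A and W1W2, 1 marker per array and gene, for epithelial, cytokine and ERK feedback genes (left) and FOXO targets with CDKN1C, TP53INP1 and CITED2 (right); open markers lie at or below the dotted floor of 72.9. YAP-S94A lies above YAP-WT in every gene on the left, among them CXCL8 (5414 against 189.8), and below it in every gene on the right, among them TSC22D3 (1199 against 5445).

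Replication genes mostly lay above YAP-WT by less than 2-fold, and no members of the mitosis list passed 2-fold. Of 37 measured DNA replication genes 33 lay above 0, with a median of 0.42 that was 0.18 when scaled on actin and GAPDH. Past 2-fold 4 of them were higher (10.81%, against 5.06% of all measured genes) and 0 lower. POLE2, a subunit of DNA polymerase epsilon, was 2.67-fold higher, GINS4, of the replicative helicase complex, 2.46-fold, the licensing factor CDT1 2.11-fold and the helicase cofactor CDC45 2.07-fold. Averaged over their probe sets GINS4 and CDT1 stood at 0.84 and 0.76, and scaled on actin and GAPDH CDC45 stood at 0.81. CDC45 read 101 for vector, 676 for YAP-WT, 1403 for YAP-S94A and 1152 for YAP-W1W2. In the mitosis list 0 of 36 measured genes passed 2-fold in either direction, and the median was 0.13, or −0.11 when scaled on actin and GAPDH. The largest difference among them was 0.86 for the kinetochore motor CENPE. Outside the list, the spindle kinesin KIFC1 was 4.48-fold higher, with 228 in YAP-WT and 1023 in YAP-S94A. The cyclin D gene CCND2 read 829 for vector, 338 for YAP-WT, 1968 for YAP-S94A and 677 for YAP-W1W2, 5.81-fold higher in YAP-S94A than in YAP-WT.

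Ribosomal protein genes (19 measured) and respiratory chain genes (27 measured) had 0 members past 2-fold. The ribosomal median was 0.21, of the size of the actin and GAPDH difference, and became −0.03 when scaled on those controls. The respiratory chain median was −0.06. In the cholesterol and fatty acid list 1 of 19 was lower, the lanosterol synthase LSS at 2.04-fold, or −0.72 as the mean over its probe sets. Of 17 measured p53 targets 1 was higher and 2 lower: BAX, a promoter of apoptosis, was 4.58-fold higher, and TP53INP1 and the DNA damage sensor XPC (2.39-fold) were lower.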

How the data were processed

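Total RNA of 4 MCF10A cultures was measured on Affymetrix arrays of 54675 probe sets. The deposited values are linear array intensities, made by the authors with GCOS, per the submitters' processing notes. The software version, its scaling target and any genome build were not given in the sources used here. The values were used as deposited, since the trimmed means differed by a ratio of 1.098.

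The 62 control probe sets were kept apart, and 41091 others with 1 gene symbol in the platform annotation were used (1801 had several symbols, 11721 none). Each gene took its probe set of highest mean intensity. Intensities below 72.9, the 40th percentile, were set to that floor before log2. Levels of different probe sets were not compared between genes, except that the marker sums add them, so that bright probe sets weigh most. Genes were counted by 2-fold and 4-fold limits, and no p-value was computed; 1 array per group limits the precision. Whether cultures were separate is not given in the sources used here.

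The members and the 43 gene lists were chosen with earlier results of these data known. Genes named were the 40 highest and 40 lowest above the floor, the 15 largest bounds each way, all TEAD, Hippo and YAP target members, and in other lists those past 2-fold and the 6 largest differences; genes at the 2-fold limit are named beside that limit. Alternatives changed the scaling, floor, filter and probe set choice. The counting was tested on simulated arrays with noise set in advance and 4-fold changes in brighter genes only. That run does not give the rate of wrong calls on the real arrays or among dim genes. Python 3.11.15, numpy 2.4.6, pandas 2.3.3 and matplotlib 3.10.9 were used. Promoter windows came from RefSeq (GRCh38.p14).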

Additional observations from a re-analysis of the deposited data

How the results depend on the processing

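Counts of genes past 2-fold and 4-fold were recomputed under 10 alternatives, of which the scaling on actin and GAPDH controls was chosen after seeing the data. Under that scaling the 2-fold counts were 358 higher and 1302 lower, with 54 higher by at least 4-fold. A floor at the 20th percentile gave 150 genes at least 4-fold higher, and a signal of at least 2 times the median left 385 at least 2-fold higher, with fewer genes counted. The other counts stayed within 1.5 times. KLF2, at least 2.91-fold higher by the brightest probe set, stood at −0.053 as the mean over its probe sets, which disagree. Of 283 named genes past 2-fold, 227 stayed past it in the same direction in every alternative that gave a value and 56 did not in at least 1. Under the actin and GAPDH scaling 26 named genes came under 2-fold, among them SPRY4 (0.92), IER2 (0.86), JUNB (0.84), RELB (0.83), GRHL3 (0.79), WNT16 (0.82), BMP6 (0.81), MATN2 (0.99), ITGAM (0.92) and ITGB3 (0.77). With the mean over probe sets 23 did, among them CALD1 (−0.93) and PHLDA1 (0.88), and with 50 added in place of the floor 20 did, among them ZEB1 (−0.94), ID3 (−0.99), ARHGEF17 (−0.98) and ITGA4 (0.89). Without probe sets that carry a suffix letter 8 did, among them OASL (0.29), TNS1 (−0.79) and ZEB2 (−0.35). Of the 43 list medians 13 changed sign in some alternative, and the 9 of at least 0.5 in size did not. No paired analysis was possible because each group has 1 array. Dim genes set the limits of the comparison, since 206 measured genes lay at the floor in YAP-WT and 246 in YAP-S94A.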

Other observations

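Retinoid and xenobiotic genes split. Of 19 measured, 5 lay above YAP-WT by 2-fold or more in YAP-S94A and 3 below. The median was −0.21, with 12 members below 0. ALDH1A3, which makes retinoic acid, read 2296 for vector, 630.5 for YAP-WT, 4597 for YAP-S94A and 5359 for YAP-W1W2, 7.29-fold higher in YAP-S94A than in YAP-WT. CRABP2, which carries retinoic acid to its receptor, was at least 11.7-fold higher, and the retinaldehyde reductase DHRS3 and RARRES1 were 2.62-fold and 2.51-fold higher. The aryl hydrocarbon receptor targets CYP1B1 and AHRR were lower, at 9.54-fold and 4.08-fold, and CYP1B1 read 5161, 1655, 173 and 188 in the same order of arrays. XDH, xanthine dehydrogenase, was 10.2-fold higher, and the monoamine oxidase MAOA 2.90-fold lower.

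Notch genes had 4 of 15 measured members at least 2-fold higher and 1 lower, with a median of 0.13 that became −0.11 when scaled on actin and GAPDH. HES1, a direct Notch target, read 898 for vector, 275 for YAP-WT, 1078 for YAP-S94A and 247 for YAP-W1W2. NRARP, another target, was 3.68-fold higher, the receptor NOTCH3 2.87-fold and the ligand JAG1 2.06-fold, or 0.74 as the mean over its probe sets. For 28 measured interferon-stimulated genes the 2-fold counts were 5 higher and 1 lower, and the median of 0.21 became −0.03 under that scaling. IFI27 and BST2 were 3.98-fold and 3.15-fold higher, and IFI44L was 3.77-fold lower. OASL was 4.47-fold higher by the brightest probe set and 0.29 by another.

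Hypoxia and glycolysis genes had 2 of 25 measured members higher and 2 lower. ANGPTL4, a lipase inhibitor, read 355 for vector, 214 for YAP-WT, 4029 for YAP-S94A and 1222 for YAP-W1W2, while NDRG1 read 4162, 12943, 1753 and 3703. These hypoxia-responsive genes therefore lay on opposite sides, 18.8-fold higher and 7.38-fold lower in YAP-S94A. Adrenomedullin, ADM, was 2.20-fold lower. Of 29 guidance genes 2 were higher and 3 lower: the guidance ligand SLIT2 was 4.16-fold lower, the semaphorin SEMA3C 3.39-fold lower, and NRP1, a semaphorin co-receptor, 2.90-fold higher.

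Among genes in none of the lists, the endocytic adaptor DAB2 read 205 for vector, 1668 for YAP-WT, 111 for YAP-S94A and 1732 for YAP-W1W2, with 4 probe sets from −3.91 to −3.45. HEG1, a mucin-like membrane receptor, was 11.5-fold lower, the chloride channel family member CLIC3 10.4-fold lower and the protease of IGF-binding proteins PAPPA 10.3-fold lower. OLR1, an oxidized LDL receptor, CLIC5 and SV2B were below the floor in YAP-S94A and at least 37.9-fold, 19.6-fold and 12.4-fold lower. UPP1, a uridine phosphorylase, read 566, 979, 6958 and 4755, and was 7.11-fold higher in YAP-S94A than in YAP-WT. MACC1 was 8.89-fold higher with 3 probe sets between 2.96 and 3.15, TSPAN1, a tetraspanin, 6.48-fold, and RNASE7, an antimicrobial ribonuclease of skin, at least 7.19-fold.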
